A study of Mus musculus with 60 samples.

Results

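The 9 genes described here encode transcription factors by which the layers of the cerebral cortex are told apart. They were taken as a named list from the expression table of mouse cortical neurons, in which they are 9 of 39756 genes, and their measured values played no part in the choice. Tbr1, Bcl11b (Ctip2), Fezf2, Foxp2 and Tle4 are factors of the deep layers, and Cux1, Cux2, Pou3f2 (Brn2) and Rorb are factors of the upper layers. The table holds 48 wild-type (WT) cortex libraries in 13 groups. For Cux1 alone, 12 hippocampus libraries, labelled WT or paxillin KO with a PXN-S119A knock-in, at postnatal days 10, 15 and 21, were used as well. The paper describes both as mice with a floxed and an S119A paxillin allele, the controls without and the others with a tamoxifen-inducible nestin Cre. The E15 group has 2 libraries, titled as primary neurons with no days in vitro given. Primary neurons collected after 3, 5 or 10 days in vitro (DIV) had received scrambled siRNA (SC) or paxillin siRNA (PXN), each with or without brain-derived neurotrophic factor (BDNF) at 20 ng/ml, and all additions were made at 2 DIV. In the order SC, SC with BDNF, PXN and PXN with BDNF, DIV3 had 3, 3, 5 and 4 libraries, DIV5 had 4, 4, 6 and 5, and DIV10 had 3, 3, 4 and 2. Paxillin is a focal adhesion adaptor protein, and the study asked what its nuclear pool does in neurons. No untreated culture was among these groups, so SC siRNA is the control throughout. The growth protocol gives E18 embryos as the source of the cultures. The paper, however, lists E15 as the first stage of the culture series and describes its mouse cultures as E15. Its E18 protocol is for rat neurons. The sources thus differ on whether the E15 libraries are the starting material, and age and culture cannot be told apart between E15 and DIV3.

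In the developing cortex, projection neurons are born in order, deep layers first and upper layers later. Tbr1, a T-box factor, specifies corticothalamic neurons of layer 6, where Foxp2 and the corepressor Tle4 are also found. Fezf2, a zinc finger factor, and its downstream factor Bcl11b specify the subcerebral neurons of layer 5. The homeodomain factors Cux1 and Cux2 mark the upper layers and shape their dendrites and spines, the POU factor Pou3f2 acts in upper-layer neuron production and migration, and the nuclear receptor Rorb marks layer 4. In dissociated cultures the layers no longer exist as positions, and bulk RNA gives only the total of each transcript: fewer cells of a type and less RNA per cell cannot be told apart.

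Levels are in TPM, transcript numbers scaled to one total per library and corrected for length, so they can be compared between genes. Every library summed to 1000000 TPM and held 20878 to 23585 genes above 0. The values do not give the depth, which the labels put at 60000000 reads per library. Pxn, the target of the siRNA, checked the labels at 1 day only. At DIV5 it was 8.43 to 9.83 TPM in the 6 PXN libraries against 12.4 to 19.9 TPM in the 4 SC libraries, a difference of -0.67 on the log2(TPM + 1) scale (limma, adjusted p = 0.0186), while at DIV3 (-0.16) and at DIV10 (0.19) the groups overlapped and neither difference was called. Markers of other cells moved with days in culture. The summed TPM of 9 astrocyte markers ran from 299 to 1076 at DIV3 and from 1121 to 9100 at DIV10, and that of 8 neuronal markers from 2801 to 4655 at DIV3 and from 527 to 2476 at DIV10. The neuronal list includes Dcx and Tubb3 of immature neurons, so its sum can also change with maturation. It is not a measure of neuron content across days. The PXN libraries numbered 1 and 2 at DIV10 (527 and 841) and the SC library numbered 3 at DIV10 (1306) had under 50% of the median neuronal sum over the cultures (2884). Libraries numbered 10 and 11 occur only under PXN siRNA, and results that rest on any of these are given with and without them.

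**Figure D1:**
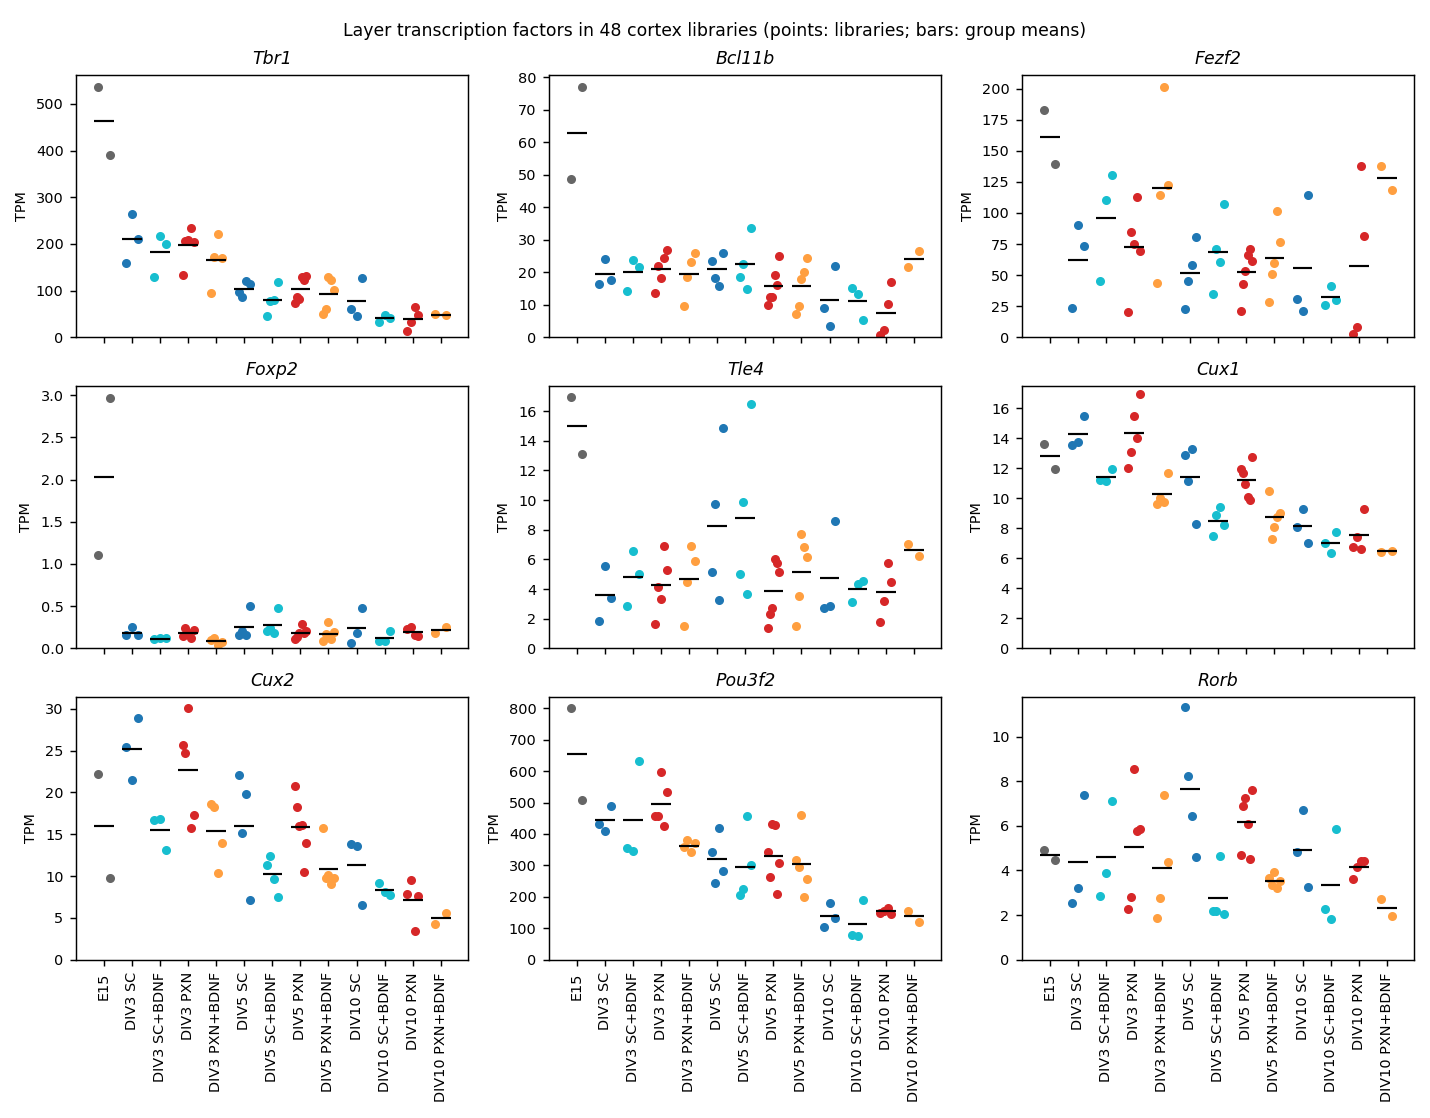
TPM of the 9 layer factors in each of the 48 cortex libraries, by group on the horizontal axis. Each point is a library, each bar a group mean, and each vertical axis starts at 0. Pou3f2 has the highest mean over all libraries (324 TPM), Tbr1 steps down from E15 through DIV10, and Foxp2 is below 1 TPM in every culture.

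Pou3f2, Tbr1 and Fezf2 were the 3 most abundant of the 9 in each of the 13 groups, and Foxp2 was close to undetected. Averaged over the 48 libraries, Pou3f2 stood at 324 TPM, Tbr1 at 129 and Fezf2 at 72.98. Bcl11b (19.2), Cux2 (14.2) and Cux1 (10.3) formed a middle range, and Tle4 (5.57) and Rorb (4.59) were low. Foxp2 averaged 0.264 TPM. It was at 1.10 and 2.97 TPM in the E15 libraries and between 0.0399 and 0.501 TPM in the 46 cultures, so it failed the filter of a mean of 1 TPM and was not tested. The other 8 passed, as did 14250 genes in all.

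The order of the levels was not equally firm at each stage. At E15 Pou3f2 (507 and 800.1 TPM) and Tbr1 (390.1 and 537) overlapped, while Fezf2 (140 and 183) and Bcl11b (48.6 and 77.1) each stood apart from their neighbours. In SC cultures at DIV3 Pou3f2, Tbr1 and Fezf2 did not overlap one another, but Fezf2 overlapped Cux2, Cux2 overlapped Bcl11b, and Rorb overlapped Tle4. In SC cultures at DIV10 each factor from Pou3f2 down to Cux1 overlapped the next in line, while Pou3f2 and Tbr1 (46.0 to 126 TPM) lay wholly above Bcl11b, Cux2 and Cux1 (3.32 to 21.8 TPM).

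Of the 9 genes, 8 have a promoter in the RefSeq table used (GRCm38.p6). The 250 bases upstream of the start of the promoter entry are printed, on the coding strand, for the 4 factors that fell from DIV3 to DIV10 in each arm, so that the sequences of genes that moved together can be compared. For Tbr1, Cux1 and Cux2 that start lies inside the RefSeq span of the gene, and so do the printed bases. Those of Pou3f2 lie just outside its span. Capitals mark matches, on either strand, to the motifs searched.
Tbr1 at chr2:61804203-61804452, plus strand: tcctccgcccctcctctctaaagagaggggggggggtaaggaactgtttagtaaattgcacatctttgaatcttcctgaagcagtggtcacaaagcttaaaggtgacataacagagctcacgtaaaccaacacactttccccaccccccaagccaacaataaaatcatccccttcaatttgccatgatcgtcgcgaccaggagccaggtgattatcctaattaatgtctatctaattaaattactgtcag
Cux1 at chr5:136565982-136566231, minus strand: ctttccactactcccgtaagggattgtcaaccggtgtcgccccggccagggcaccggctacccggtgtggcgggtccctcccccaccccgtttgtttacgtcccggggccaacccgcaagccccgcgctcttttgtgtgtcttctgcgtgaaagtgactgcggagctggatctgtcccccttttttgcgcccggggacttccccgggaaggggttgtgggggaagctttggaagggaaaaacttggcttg
Cux2 at chr5:122049852-122050101, minus strand, the first of its promoters: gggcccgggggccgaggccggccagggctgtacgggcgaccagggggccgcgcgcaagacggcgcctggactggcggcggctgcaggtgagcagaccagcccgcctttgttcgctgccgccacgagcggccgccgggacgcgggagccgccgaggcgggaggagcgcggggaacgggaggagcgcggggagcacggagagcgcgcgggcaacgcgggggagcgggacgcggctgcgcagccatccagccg
Pou3f2 at chr4:22488367-22488616, minus strand: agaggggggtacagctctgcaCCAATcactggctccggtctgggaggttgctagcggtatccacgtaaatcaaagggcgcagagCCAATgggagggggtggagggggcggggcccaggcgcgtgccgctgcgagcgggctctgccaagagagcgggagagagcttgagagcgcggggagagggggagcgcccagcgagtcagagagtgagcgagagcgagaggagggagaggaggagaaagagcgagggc
The octamer bound by POU factors (ATGCAAAT), the T-box half-site (TCACACC), the cAMP response element (TGACGTCA), the CCAAT box and the TATA box (TATAAA) were searched for, and none of these motifs overlaps another. Of these 4 promoters, Pou3f2 alone held a match, with CCAAT at -229 and -166 from the start. That motif is in 33.85% of 32851 promoters of the same length, the octamer in 1.6%, the T-box half-site in 3.33%, the cAMP response element in 1.55% and the TATA box in 12.37%. Base composition differed widely, from 45.2% GC with 5 CpG in Tbr1 to 80% GC with 40 CpG in Cux2, with Cux1 (62.8%, 18 CpG) and Pou3f2 (66.8%, 18 CpG) between them. The median promoter has 52.4% GC and 6 CpG. Elsewhere among the 8 genes, CCAAT was present in the first promoters of Tle4 and Rorb, and TATAAA in the second promoter of Cux2.

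Between the E15 libraries and SC cultures at DIV3 the deep-layer factors were lower and the upper-layer factors were mixed. Of the 8 tested, 1 was called (Tle4, lower), against 8.11% of all genes, or 3.48% in that direction. Tle4, a corepressor of the Groucho family, was at 16.9 and 13.1 TPM at E15 and at 1.82, 5.55 and 3.41 TPM at DIV3. The groups did not overlap, and the DIV3 mean was 23.9% of the E15 mean (-1.88 on the log2 scale, SE 0.58, adjusted p = 0.0391). Tbr1 (45.6% of E15), Bcl11b (30.96%), Fezf2 (38.8%) and Pou3f2 (67.9%) were also lower in every DIV3 library than in both E15 libraries without passing the test (adjusted p from 0.104 to 0.354). Foxp2 was at 9.17% of its E15 mean, also without overlap, and was called only where no filter on low values was used. Cux1 (111%), Cux2 (158%) and Rorb (93.5%) overlapped. The share of all genes without overlap is not given here, so nothing particular to the factors is read from the separation. The E15 group has 2 libraries, so its spread is poorly known, and the call for Tle4 was lost in 4 of 5 fits that left out a library. Only 1 run of index numbers holds both stages, with 2 DIV3 libraries against 1 at E15. Within it the difference was -2.06 for Tle4 and -0.92 for Pou3f2. With 1 library at E15, no test result is given.

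Other genes of the deep layers fell at this step too. Of 10 tested deep-layer genes that are not among the 9, 5 fell and none rose, where 3.48% of all genes fell, among them Crym (-2.75), a thyroid hormone binding protein of deep-layer neurons, and Sox5 (-0.89), which times deep-layer neuron generation. Of 12 upper-layer genes, 1 rose (Rasgrf2, 1.53) and none fell. The median difference was -1.59 for the 4 tested deep-layer factors, -0.02 for the 4 upper-layer factors and -0.01 for all genes. Eomes, the T-box relative of Tbr1 that marks intermediate progenitors, fell by 3.25 on the log2 scale, from a mean of 154 TPM to 15.5 TPM. The vascular gene Cldn5 was at a mean of 383 TPM at E15 and of 0.542 TPM at DIV3, and the part of such cell losses in the factors' levels was not tested.

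From DIV3 to DIV10 Tbr1, Cux1, Cux2 and Pou3f2 fell in all 4 arms, and in each arm no DIV10 library overlapped a DIV3 library. In SC cultures these 4 of the 8 tested were called, against 35.2% of all genes (19.1% lower). With BDNF the same count was 4 of 8 against 40.3% (22.4% lower), under PXN siRNA 5 of 8 against 54.3% (32.4% lower), and with both 4 of 8 against 32.7% (16.5% lower). Calls were common among all genes in each arm, and the share of all genes without overlap is not given here. Nothing particular to the factors is read from these counts or from the lack of overlap.

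Pou3f2 was at 433, 411 and 488 TPM in the SC libraries at DIV3 and at 104, 181 and 134 TPM at DIV10. All the later libraries lay below all the earlier ones, the mean went from 444 ± 39.5 to 139 ± 38.9 TPM (SD, n = 3 each), and the difference was -1.70 (SE 0.31, adjusted p = 4.87e-05). The difference was -2.03 with BDNF, -1.68 under PXN siRNA and -1.39 with both.

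Tbr1 was at 159, 264 and 211 TPM in SC libraries at DIV3 and at 60.3, 46.0 and 126 TPM at DIV10. The groups were separate, but the SC library numbered 6 (126 TPM) lay nearer to DIV3 than the others did. The mean fell to 36.7% (-1.54, SE 0.40, adjusted p = 0.0031), and to 22.5% with BDNF (-2.10), 20.1% under PXN siRNA (-2.48) and 29.5% with both (-1.68). When the summed neuronal markers entered the fit as a term, the fall in SC cultures was no longer called (-0.78, adjusted p = 0.136), while it was still called under PXN siRNA (-1.35, adjusted p = 0.015) and in SC cultures with BDNF (-1.66, adjusted p = 0.0005). The sum itself fell with the day, so such a term can also take out part of the day difference.

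Cux2 was at 25.4, 21.4 and 28.9 TPM in the SC libraries at DIV3 and at 13.8, 13.6 and 6.50 TPM at DIV10, a fall to 44.8% (-1.15, SE 0.33, adjusted p = 0.0058). The lowest value belongs to the SC library numbered 6, and without it the difference was -0.82 and not called. The other arms fell by 0.83 with BDNF (adjusted p = 0.0401), by 1.58 under PXN siRNA and by 1.43 with both. With BDNF, 5 of the 6 fits that left out a library lost the call.

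Cux1 had the smallest differences of the 4 and the smallest SE. It was at 13.5, 13.8 and 15.5 TPM in the SC libraries at DIV3 and at 8.12, 9.30 and 6.99 TPM at DIV10, so the groups were well separated. The mean fell from 14.3 ± 1.06 to 8.14 ± 1.15 TPM (SD, n = 3 each), which is 57.1% (-0.75, SE 0.14, adjusted p = 0.0001). The falls were 0.63 with BDNF, 0.85 under PXN siRNA and 0.59 with both.

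Differences were also taken among libraries of a shared run of index numbers. The table's headers give an index number per library, which the labels do not explain, and do not state runs. The runs were read as 1 to 15, 65 to 84, and 28 to 35 joined with 1 to 5. The last was set by the library numbers 10 and 11, with 1 E15 library, since indices 1 to 5 also occur in the first. Libraries numbered 11 fall in both of its parts, so it may not be a single batch. Over the 7 comparisons of DIV10 with DIV3 that could be made within such a run, all 4 factors were lower in 7 of 7. For these 4 that direction was fixed in advance, since in each arm every DIV10 library lay below every DIV3 library. Bcl11b, whose groups overlapped in all 4 arms, was also lower in 7 of 7 (-3.05 to -0.04), and Fezf2 in 6. The share of all genes lower in all of these comparisons is not given here, so nothing particular to the factors is read from such counts. In SC with BDNF 1 of these comparisons sets 1 library against 1. For the 4 factors the differences ranged from -2.96 to -1.45 for Tbr1, from -2.18 to -1.37 for Pou3f2, from -1.51 to -0.70 for Cux2 and from -0.89 to -0.56 for Cux1.

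**Figure D2:**
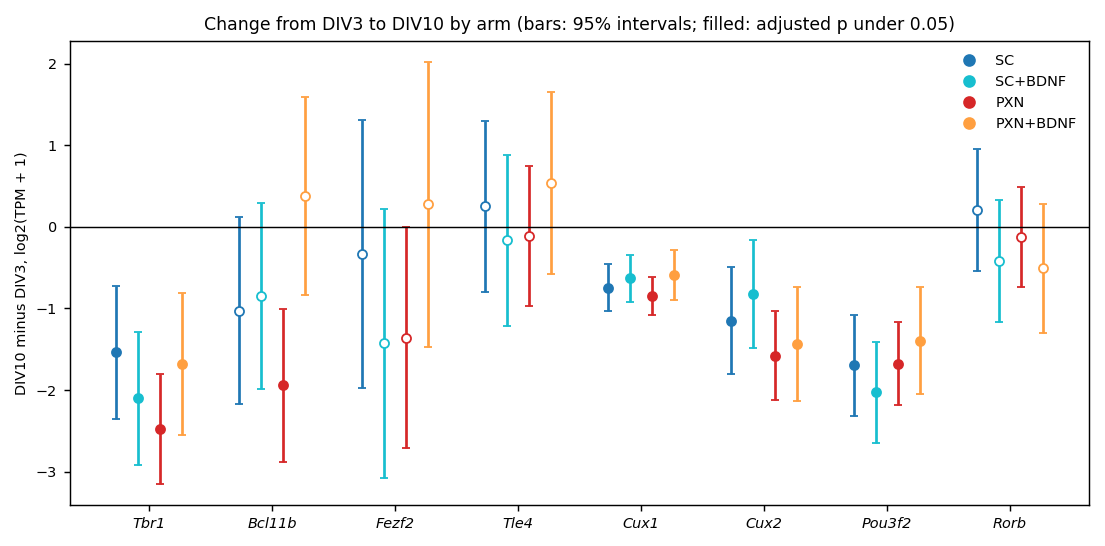
Difference DIV10 minus DIV3 on the log2(TPM + 1) scale for the 8 tested factors in each of the 4 arms. Points are fitted differences, bars are 95% intervals, and filled points have a limma adjusted p under 0.05. Tbr1, Cux1, Cux2 and Pou3f2 are below 0 in all arms, while Fezf2, Tle4 and Rorb lie on both sides of it.

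Fezf2, Tle4 and Rorb were called in none of the 4 arms, and Bcl11b in 1. Fezf2 was at 23.2, 90.6 and 73.6 TPM in SC cultures at DIV3 and at 31.1, 21.3 and 115 TPM at DIV10. Its groups overlapped and the interval of the difference ran from -1.98 to 1.32. The differences were -1.43 with BDNF, where the groups did not overlap (adjusted p = 0.160), -1.36 under PXN siRNA (adjusted p = 0.0836) and 0.28 with both. In SC cultures with BDNF, where library numbers paired the days, the fit with the number as a block called Fezf2 at adjusted p = 0.0143, against 51.3% of all genes called in that fit.

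Fezf2 under PXN siRNA spread widely at DIV10. The libraries numbered 1 and 2 were at 2.91 and 8.11 TPM, and those numbered 10 and 11 were at 138 and 81.3 TPM. The first pair had the low neuronal sums given above, and the 2 pairs come from different runs of index numbers. Within the first run the difference from DIV3 was -2.85, and between the libraries numbered 10 and 11 it was 0.25. Without the latter 4 libraries Fezf2 was called (6 of 8 factors, against 52.2% of all genes). Bcl11b showed the same division, with 0.545 and 2.09 TPM in the first pair and 10.2 and 17.02 TPM in the second. Its difference from DIV3 under PXN siRNA, -1.94 (adjusted p = 0.0006), was a call made with overlapping groups, and it was -0.59 (adjusted p = 0.247) without the libraries low in neuronal markers and -0.26 (adjusted p = 0.765) with the neuronal sum in the fit. In the other arms Bcl11b was not called (-1.03, -0.85 and 0.37).

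Tle4, of layer 6, and Rorb, of layer 4, overlapped between the days in all 4 arms. Tle4 differed between the days by 0.25 in SC cultures (SE 0.52, adjusted p = 0.74), -0.17 with BDNF, -0.11 under PXN siRNA and 0.54 with both. Rorb differed by 0.20 (interval -0.54 to 0.95), -0.42, -0.12 and -0.51 in the same order. Within runs of index numbers Rorb was called in 3 of 7 fits, in both directions. It was -1.02 with both treatments in the libraries numbered 10 and 11 (adjusted p = 0.00595), -0.51 in SC with BDNF (adjusted p = 0.0396) and 0.47 under PXN siRNA (adjusted p = 0.0450). The share of all genes called in those fits is not given here, so nothing particular to Rorb is read from these calls. Foxp2 was at 0.155, 0.251 and 0.154 TPM in SC cultures at DIV3 and at 0.0676, 0.183 and 0.481 TPM at DIV10, with no order that 3 libraries could show.

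Other upper-layer genes also fell over this interval. In SC cultures 7 of 12 fell and none rose, where 19.1% of all genes fell, among them the POU genes Pou3f3 (-1.14) and Pou3f1 (-1.58). With BDNF 9 of 12 fell (22.4% of all genes), under PXN siRNA 9 (32.4%) and with both 10 (16.5%). Of the 10 tested deep-layer genes, 4 fell and 1 rose in SC cultures, beside 2719 and 2301 of the 14250 genes in all. Nr4a2, a nuclear receptor of subplate and layer 6b neurons, fell from a mean of 43.7 to 17.2 TPM, and Pcp4 (2.11), a calmodulin regulator of layer 5 neurons, rose. With both treatments none of the 10 fell and 3 rose. The median difference in SC cultures was -0.68 for the 4 tested deep-layer factors, -0.95 for the 4 upper-layer factors, -1.17 for the other upper-layer genes, -0.27 for the other deep-layer genes and -0.04 for all genes.

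Some relatives of the 9 fell over the same days. Of 10 tested family members, 5 fell in SC cultures, where 19.1% of all genes fell. Eomes (-3.45), the zinc finger gene Bcl11a (-1.25), the forkhead gene Foxp4 (-0.86), and the corepressors Tle1 (-1.18) and Tle3 (-0.60) fell. Among projection neuron genes 5 of 9 fell, against the same share, Neurod6 (-3.01) and Bhlhe22 (-2.40) among them, while Slc17a7, the vesicular glutamate transporter that accumulates as excitatory synapses form, rose by 3.24, from a mean of 93.6 to 990.1 TPM.

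Glial and neuronal markers moved over the same days. In SC cultures 6 of 9 astrocyte, 4 of 8 oligodendrocyte and 4 of 5 microglia markers rose, where 2301 of 14250 genes rose, with Gja1 of astrocytes at a mean of 20.4 TPM at DIV3 and 360 TPM at DIV10. Of 8 neuronal markers, Snap25 and Syt1 of synapses rose, and Dcx (-1.97) and Tubb3 (-2.07) of immature neurons fell. No marker of these 4 lists was at 0 in every library of any group. The part of glial RNA in the factors' falls was not tested. With the neuronal sum in the fit Cux1 (-0.61), Cux2 (-1.38) and Pou3f2 (-1.66) were still called in SC cultures.

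In steps, fewer factors were called. From DIV3 to DIV5 none of the 8 factors was called in SC cultures, against 9.47% of all genes, with 4 at an unadjusted limma p under 0.05. With median-ratio scaling 2 were called (Tbr1 and Cux1), against 8.51% of all genes, and in the step from DIV5 to DIV10 then 1, against 17.6%. The steps were not tested against each other. Tbr1 was at 96.3, 86.6, 121 and 113 TPM at DIV5, below every DIV3 library, at 49.4% of the DIV3 mean (-0.99, adjusted p = 0.0887). From DIV5 to DIV10 the called factors were 2 of 8, against 24.9% (19.2% lower). Pou3f2 went from 343, 244, 418 and 282 TPM to the DIV10 values above without overlap (-1.21, SE 0.29, adjusted p = 0.0022). Cux1 fell by 0.43 (adjusted p = 0.0169) with groups that overlapped, and lost the call in 4 of 7 fits that left out a library. Rorb had its highest mean at DIV5, 7.66 ± 2.85 TPM (n = 4), against 4.39 ± 2.63 at DIV3 and 4.94 ± 1.72 at DIV10 (n = 3 each), but neither step was called. All 4 SC libraries at DIV5 come from 1 run of index numbers, as does the DIV3 library numbered 3, with Rorb at 7.40 TPM. The DIV3 libraries numbered 1 and 2 (Rorb at 2.56 and 3.21 TPM) and the DIV10 library numbered 1 come from another. In both steps the day and the run are thus partly mixed for every factor.

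BDNF gave few calls among the factors. The 8 tested gave 1 call in 6 comparisons. Under PXN siRNA at DIV3, Cux1 was at 12.03, 13.1, 15.5, 14.02 and 16.97 TPM without BDNF and at 9.64, 10.0, 9.77 and 11.7 TPM with it. The highest value with BDNF was below the lowest without it, and the difference was -0.44 (SE 0.12, adjusted p = 0.0339). It was 1 of 8 factors, against 2.14% of all genes (0.828% lower). Within the 2 runs of index numbers it was -0.33 (adjusted p = 0.404) and -0.49 (adjusted p = 0.0865), the second being the libraries numbered 10 and 11. Without these it was -0.42 with an adjusted p of 0.666, where 0.232% of all genes were called, and 6 of the 9 fits that left out a library lost the call. With the library number as a block, where the numbers paired the libraries, it was -0.42 (adjusted p = 0.00496). In SC cultures the count was 0 of 8 at DIV3, DIV5 and DIV10, against 1.21%, 0.0491% and 0% of all genes, and under PXN siRNA it was 0 of 8 at DIV5 and DIV10, against 0.014% at each. At an unadjusted limma p under 0.05, 2 factors passed in SC cultures at DIV3, 2 at DIV5 and 0 at DIV10, and 1, 3 and 2 under PXN siRNA.

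Library numbers paired the BDNF and control libraries of SC cultures, and with the number as a block 1 further factor was called at each of DIV3 and DIV5. Cux2 at DIV3 was at 25.4, 21.4 and 28.9 TPM without BDNF and at 16.7, 16.9 and 13.1 TPM with it. The groups did not overlap, and the difference of -0.66 had an adjusted p of 0.480 without the block and of 0.0356 with it, where 4.01% of all genes were called. Rorb at DIV5 was at 11.3, 8.25, 6.46 and 4.62 TPM without BDNF and at 2.17, 2.18, 4.65 and 2.03 TPM with it. The library numbered 3 with BDNF was level with the library numbered 4 without it, and all others were apart. The difference of -1.20 had an adjusted p of 0.177 without the block and of 0.0144 with it, where 0.94% of all genes were called. Within runs the Cux2 difference was -1.08 (1 against 1 library) and -0.45 (2 against 2, adjusted p = 0.148). Within the run that holds both groups the Rorb difference was -1.01 (2 against 4 libraries, adjusted p = 0.9999). For the numbers 1 and 2 at DIV5 the SC libraries with and without BDNF come from different runs. BDNF and the run cannot be told apart for those pairs. Under PXN siRNA at DIV5 Rorb did not overlap either, with 3.21 to 3.94 TPM with BDNF and 4.52 to 7.61 TPM without it, and was not called (-0.64, adjusted p = 0.660).

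Within pairs of the same number the direction was often shared. The pairs are not independent across arms, since numbers 1 and 2 at DIV3, and 1, 2 and 4 at DIV5, occur in both. At DIV3, BDNF libraries were higher than their partners in Fezf2 in 7 of 7 pairs (median difference 0.82), which held for 9.97% of tested genes. They were lower in Tbr1, Cux1 and Cux2 in 7 of 7, which held for 11.04%. At DIV5, Cux1 and Rorb were lower in 9 of 9 pairs (median -0.30 and -0.87), which held for 7.38% of tested genes, and Fezf2 was higher in 8 of 9. In the SC pairs numbered 1 and 2 of that day, BDNF and the run of index numbers cannot be told apart. Rorb differences in the SC pairs of that day ranged from -1.96 to -0.40. At DIV10, Tbr1, Cux1 and Rorb were lower in 4 of 4 pairs (10.98% of tested genes), and Bcl11b (median 0.66) and Tle4 (0.32) were higher in 4 of 4 (13.53%).

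**Figure D3:**
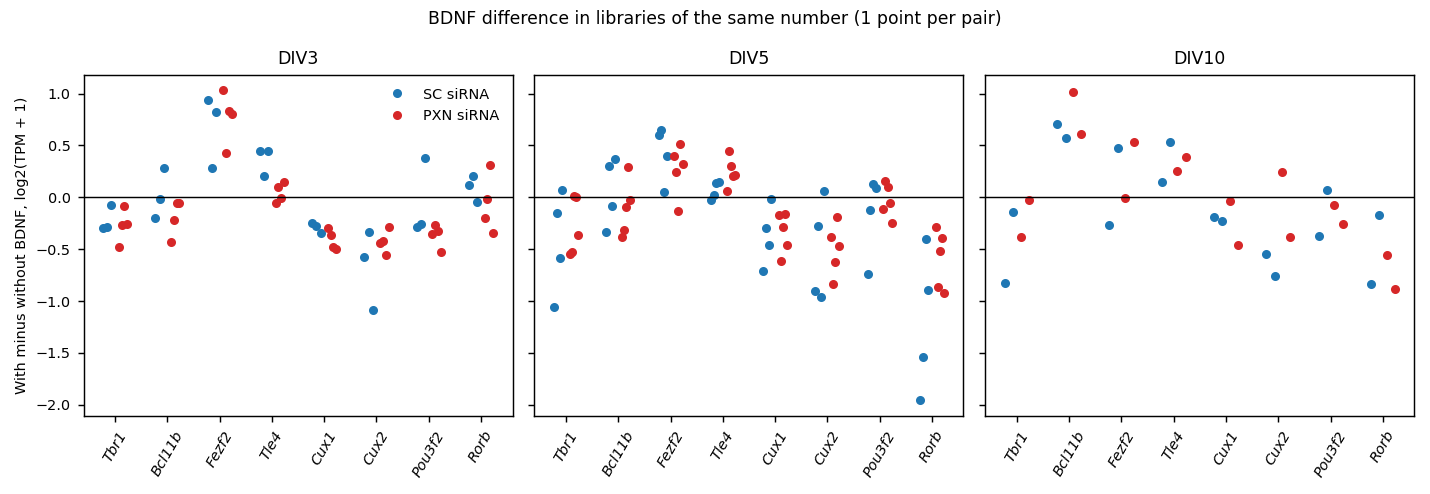
Difference between the library with BDNF and the library of the same number without it, on the log2(TPM + 1) scale, for the 8 tested factors at DIV3, DIV5 and DIV10. Each point is a pair, blue under SC siRNA and red under PXN siRNA. Fezf2 is above 0 in all 7 pairs at DIV3, and Cux1 is below 0 in all pairs of the 3 days.

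Paxillin siRNA gave no called factor in any of 6 comparisons with SC siRNA. The counts were 0 of 8 against 0%, 6.18% and 2.58% of all genes at DIV3, DIV5 and DIV10, and 0 of 8 against 0%, 0.596% and 0.0211% with BDNF. At an unadjusted limma p under 0.05, 0, 1 and 1 factors passed without BDNF and 0, 0 and 1 with it. At DIV5, where Pxn itself was lower, the intervals of the difference were narrow for Cux1 (-0.24 to 0.22), Cux2 (-0.45 to 0.59) and Pou3f2 (-0.47 to 0.51), and wide for Fezf2 (-1.24 to 1.36).

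Tle4 at DIV5 was called in the fit with the library number as a block over all cultures, which is not a test of its pairs alone. It was at 5.15, 9.74, 3.24 and 14.8 TPM in SC libraries 1 to 4 and at 1.38, 2.35, 2.69 and 6.04 TPM in the PXN libraries of the same numbers, with 5.79 and 5.15 TPM in those numbered 10 and 11. The groups overlapped, but each PXN library with an SC partner was below it (differences from -1.68 to -0.20). The difference was -0.85 (adjusted p = 0.209) without the block and -1.08 (adjusted p = 7.48e-05) with it, where 22.7% of all genes were called. For the numbers 1 and 2 the SC and PXN libraries come from different runs of index numbers, and within the run that holds both arms the difference was -0.68 (2 against 4 libraries, adjusted p = 0.708). The siRNA and the run cannot be told apart for those pairs. Markers of other cells differed as well. The summed astrocyte markers were at 1407 to 8688 TPM in SC and 1149 to 2060 TPM in PXN libraries, the 8 oligodendrocyte markers at 1680 to 5552 and 1303 to 2332 TPM, and the 9 progenitor markers at 1518 to 3123 and 994 to 1327 TPM, the last without overlap. Their part in the Tle4 difference was not tested.

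Tle4 was not alone in its direction among the pairs at DIV5. Without BDNF, Bcl11b and Fezf2 were also lower under PXN siRNA in 4 of 4 pairs (median -0.47 and -0.11), which held for 21.28% of tested genes. With BDNF all 3 were lower in 3 of 3 pairs, which held for 39.74%. Differences there ran from -1.28 to -1.01 for Tle4, from -1.24 to -0.87 for Bcl11b and from -0.82 to -0.28 for Fezf2. In each of these pairs with BDNF both libraries come from the same run of index numbers. The block fit called Bcl11b (-1.01, adjusted p = 0.0218) and Tle4 (-0.97, adjusted p = 0.000674) with BDNF, where 3130 of 14250 genes were called and the numbers were not found to pair the libraries. It did not call Bcl11b without BDNF (-0.75, adjusted p = 0.0642).

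At DIV10, Tbr1 was at 60.3, 46.0 and 126 TPM in SC cultures and at 12.96, 32.01, 64.6 and 48.6 TPM under PXN siRNA, with overlap (-1.03, adjusted p = 0.0937). Without the libraries numbered 10 and 11, Tbr1 (-1.74, adjusted p = 0.0032), Bcl11b (-2.18, adjusted p = 0.0019) and Fezf2 (-2.87, adjusted p = 0.0031) were called, 3 of 8 against 36.9% of all genes. What is then left of the PXN group is the pair with the lowest neuronal sums. Without the libraries low in neuronal markers the differences were -0.63, -0.08 and 0.81 for these 3 factors, and none was called. With both BDNF and PXN siRNA at DIV10 only the libraries numbered 10 and 11 exist, in which Fezf2 was at 137 and 118.5 TPM and Bcl11b at 21.6 and 26.5 TPM. Against PXN siRNA alone the differences were 2.35 for Fezf2 (adjusted p = 0.246) and 2.16 for Bcl11b (adjusted p = 0.221), and against the same numbers without BDNF Fezf2 differed by 0.27. Tests of whether the day, BDNF or siRNA differences differed from one another gave 0 of 8 factors in each of 4 contrasts. Of all genes, 0.112% were called for the day change with BDNF against without it in SC cultures, 0.00702% for the day change under PXN against SC siRNA, 0% for BDNF at DIV5 under PXN against SC siRNA, and 5.76% for PXN against SC at DIV10 against DIV5.

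The balance of the 2 classes of factors can be read as the log2 ratio of their summed TPM, upper over deep. It was -0.23 and 0.10 in the E15 libraries and 0.76 ± 0.51 in SC cultures at DIV3 (SD, n = 3). All 3 SC libraries at DIV3 lay above both at E15. At DIV10 it spread from -0.85 to 1.51 in SC cultures and from -0.29 to 3.18 under PXN siRNA. The libraries low in neuronal markers held the high values, 1.51 in SC and 3.18 and 1.95 under PXN siRNA. Without them the SC libraries were at 0.34 and -0.85, and the PXN libraries, then only those numbered 10 and 11, at -0.29 and 0.13. Pou3f2 was the most abundant upper-layer factor in every group. Of the deep-layer factors Tbr1 had the highest mean, except at DIV10 under PXN siRNA. There Fezf2 had it, at 57.5 TPM against 39.5 TPM for Tbr1, and with BDNF at 128 against 48.5 TPM. The ratio of Fezf2 to Tbr1, chosen after the values were seen, sets layer 5 against layer 6. It was -1.95 ± 0.72 in SC cultures at DIV3 and -1.03 ± 0.45 with BDNF, -1.14 ± 0.68 at DIV5 and -0.27 ± 0.15 with BDNF. At DIV10 Fezf2 exceeded Tbr1 in all 4 libraries numbered 10 and 11, at 2.79 and 2.49 times its TPM with BDNF and PXN siRNA and at 2.13 and 1.67 times with PXN siRNA alone, and in none of the other 8. No library at E15 or DIV3 had Fezf2 above Tbr1.

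**Figure D4:**
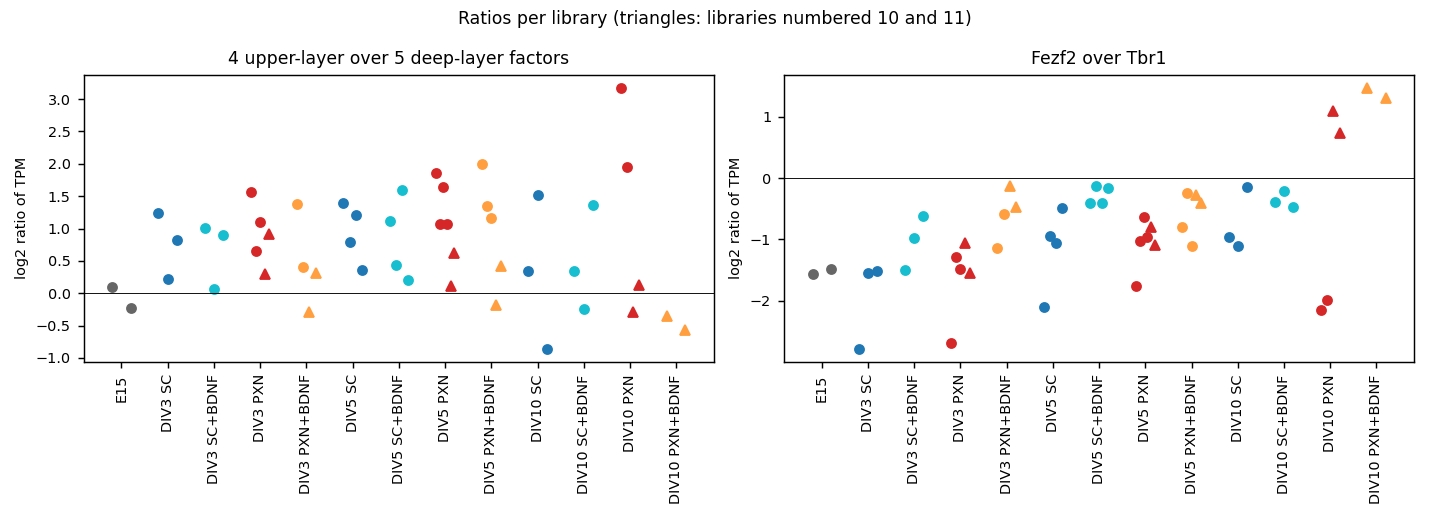
Log2 ratio of the summed TPM of the 4 upper-layer factors to the 5 deep-layer factors (left) and of Fezf2 to Tbr1 (right) in each library, by group. Triangles are libraries numbered 10 and 11. The left ratio spreads from -0.29 to 3.18 under PXN siRNA at DIV10, and at DIV10 the right ratio is above 0 only in the 4 libraries numbered 10 and 11 (0.74 to 1.48).

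Over the 13 group means the factors differed in how closely they ran together. Pearson's r on the log2 scale was 0.95 for Cux1 with Cux2, 0.92 for Tbr1 with Pou3f2, 0.90 for Cux1 with Pou3f2 and 0.86 for Bcl11b with Fezf2, and lowest for Fezf2 with Rorb (-0.21). These values describe 13 points that share days and library numbers. Tbr1, a deep-layer factor, thus ran closer to Pou3f2 than to Fezf2 (0.64) or Bcl11b (0.77). By the same measure the gene most like Tbr1 among all tested was Auts2 (0.99), for Pou3f2 it was Taf5 (0.99), for Cux1 Smarca2 (0.98), for Cux2 Add2 (0.96), for Bcl11b Nt5c2 (0.97), for Tle4 Pabpc4l (0.96), for Fezf2 Dctn5 (0.91) and for Rorb Rps6ka2 (0.87).

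Cux1 has a further property that bears on its level. Its locus, at chr5:136248135-136567590 on the minus strand, makes long transcripts for the homeodomain factor and shorter ones for the Golgi protein CASP, which lacks the homeodomain, and the TPM of the gene adds them. The long-read counts of hippocampus in the same series separate the 2. They come from 12 libraries, 2 each of the mice labelled WT and of those labelled paxillin KO with a PXN-S119A knock-in at postnatal days 10, 15 and 21, with 3162777 to 5687908 reads each. Over all 12, 1123 reads were assigned to Cux1. Transcripts without the homeodomain held 799 of them, transcripts with it 21, and 303 were on transcripts that could not be matched to a sequence. Of the matched reads, 95.3% to 100% per library lacked the homeodomain (lowest Wilson 95% bound 84.5%, highest 100%, for counting error only). The homeodomain transcripts are 5520 to 12862 bases long and the others 2821 and 2831, and long molecules may be read through less often, so these shares are not shares of molecules. Whether the share is alike in the cortex cultures was not tested.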

How the data were processed

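Messenger RNA libraries of the 48 cortex samples were sequenced by the authors as paired reads. They aligned these with STAR 2.7.10 to GRCm38, and RSEM 1.3.3 gave the deposited TPM per gene. For hippocampus, long reads were aligned with minimap2 (SAMtools, mm10) and deposited by the authors as counts per transcript from IsoQuant; these were summed over Cux1 transcripts only. TPM keep no depth, so counting error cannot be given. TPM were transformed to log2(TPM + 1). The 14250 genes that averaged 1 TPM or more were fitted with limma 3.58.1 in R 4.3.3 over all 13 groups with a mean-variance trend, and p-values were adjusted over all of them (Benjamini-Hochberg, called under 0.05). The fit was tested on simulated data.

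The titles give each cortex library a number. It was read as a pairing where at least 3 pairs shared it and each pair's deviations from the group means correlated above 0.1. This held for BDNF in SC at DIV3 (r from 0.289 to 0.563) and DIV5 (0.511 to 0.787), BDNF in PXN at DIV3 (0.440 to 0.745) and DIV5 (0.317 to 0.782), PXN against SC at DIV3 (0.277 to 0.806) and DIV5 (0.244 to 0.488), and DIV3 to DIV10 in SC with BDNF (0.301 to 0.540). The fits with the number as a block gave each number 1 effect over the cultures of all days and arms. This was also so where the numbers were not found to pair. The p-values of these fits thus do not measure the spread of any 1 set of pairs. Nothing states what the number stands for, so p-values measure the spread between these libraries, which may be technical. No libraries were identical.

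Alternatives were a pseudocount of 0.1, no filter, median-ratio scaling, fits of 2 groups only, the number as a block, leaving out each library, and leaving out the libraries numbered 10 and 11. Fits without libraries low in neuronal markers, with the neuronal sum as a term, and within runs of index numbers, the pair counts and the ratio of Fezf2 to Tbr1 were added after seeing the data. The 9 genes and the other gene lists were chosen with earlier results of these data known. Named genes were the members, the 2 genes with the smallest p per list and direction, or genes of the same families, and the gene most like each member. Some genes that this rule would name are not reported here. Genes from the lists that were named beyond this rule were chosen after their values were seen. Promoters and gene positions are RefSeq (GRCm38.p6, the build the authors used). Python 3.11.15, pandas 2.3.3, numpy 2.4.6, scipy 1.17.1 and matplotlib 3.10.9 were used.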

Additional observations from a re-analysis of the deposited data

Results flagged for a closer look

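Foxp2 in SC cultures at DIV5 was at 0.501 TPM in the library numbered 4, far above the nearest of the other 3 (0.205 TPM). Cux2 with BDNF and PXN siRNA at DIV5 was at 15.7 TPM in the library numbered 1, against 10.1 TPM in the nearest of the other 4. Rorb in SC cultures with BDNF at DIV5 was at 4.65 TPM in the library numbered 3, against 2.18 TPM in the nearest of the other 3, and this library is the one that overlapped the cultures without BDNF. In all, 63 groups of values were looked at in this way, and chance picks about 1 in 20. For Foxp2 the BDNF difference in SC cultures was negative in every pair at DIV3 and positive in every pair at DIV10, a difference between the days of 0.117 on the log2(TPM + 1) scale that was not tested and rests on levels below 1 TPM.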

How the results depend on the processing

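No difference called in the fit of all 13 groups changed sign under any setting run. Of those called only under another setting, Fezf2 in PXN against SC at DIV10 was -2.87 without the libraries numbered 10 and 11 and 0.81 without those low in neuronal markers, and Fezf2 from DIV3 to DIV10 under PXN siRNA was -3.12 and 0.73 in the same settings. Bcl11b from DIV3 to DIV10 in SC was called without SC 6 (-1.63) and was 0.10 with the neuronal sum in the fit, and Pou3f2 in PXN against SC at DIV10 was called with the block (0.60) and was -0.02 without SC 1. From E15 to DIV3 the number of called factors, 1, was 0 with a pseudocount of 0.1, against 8.33% of all genes. It was 2 without the filter (9.11%) and 3 with the 2 groups alone (8.34%). Leaving out a library gave 0 to 1 (0 without either E15 library or the DIV3 SC library numbered 1 or 3). From DIV3 to DIV5 the number was 2 in place of 0 with median-ratio scaling (Tbr1 and Cux1), against 8.51% of all genes. Leaving out a library gave 0 to 1 (Cux1 without DIV5 SC 3). From DIV5 to DIV10 the number was 1 in place of 2 with scaling (17.6%) and 0 with the 2 groups alone (0.0772%). Leaving out a library gave 1 to 2 (Pou3f2 alone without DIV10 SC 1, DIV5 SC 1 or DIV5 SC 3). Leaving out a library gave 0 to 2 for BDNF in SC at DIV5 (Rorb without SC with BDNF 3, Cux1 and Rorb without SC 4), 0 to 2 for BDNF under PXN siRNA at DIV10 (Bcl11b and Fezf2 without PXN 10 or 11), 0 to 1 for PXN against SC at DIV10 (Tbr1 without PXN 10, PXN 11 or SC 3), and 0 to 1 for BDNF under PXN siRNA at DIV3 (Cux1 lost without PXN 3, 10 or 11 or PXN with BDNF 1, 2 or 10). Without all libraries numbered 10 and 11, PXN against SC at DIV10 gave 3 (36.9% of all genes) and BDNF under PXN siRNA at DIV3 gave 0 (0.232%). Shares of all genes are not given for the fits that left out 1 library. Nothing particular to the factors is read from the counts of those fits. The cause of these shifts was not tested.

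With the library number as a replicate block the number was 4 in place of 0 from DIV3 to DIV5, against 15.4% of all genes in that fit. From DIV5 to DIV10 it was 5 in place of 2 (34.7%). It was 1 in place of 0 for BDNF in SC at DIV3 (4.01%) and at DIV5 (0.94%). For PXN against SC it was 1 at DIV5 (22.7%), 3 at DIV10 (19.1%) and 2 with BDNF at DIV5 (22%), each in place of 0. For the PXN difference at DIV10 minus that at DIV5 it was 1 (Cux2, 12.9%). In the other 15 block fits it stayed within 1.5 times. Outside the comparisons that the numbers were found to pair, the samples share only a number.

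Among all genes, median-ratio scaling moved the median by -0.13 from DIV3 to DIV5, by 0.14 from DIV5 to DIV10 and by 0.11 from DIV3 to DIV10 under PXN siRNA, and the share of calls that were higher from 84.4% to 61.0%, from 23.1% to 44.8% and from 40.4% to 49.3%. For PXN against SC at DIV5 it gave 410 calls, 36.8% of them higher, in place of 880, of which 114 were higher, at DIV10 290, 53.4% of them higher, in place of 367 (15.5%), and with BDNF at DIV5 4 in place of 85. The 2 groups alone gave 0 in place of 1350 from DIV3 to DIV5, 11 in place of 3551 from DIV5 to DIV10 and 3 in place of 880 for PXN against SC at DIV5. Without the filter E15 to DIV3 had 2675 in place of 1156. With the block PXN against SC had 3233 in place of 880 at DIV5 and 2726 in place of 367 at DIV10, and without the libraries low in neuronal markers 14 at DIV10. Groups of 2 to 6 libraries limit what can be seen, and TPM give no counting error.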

Other observations

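The numbers in the titles went with the level of some factors across groups. Fezf2 was lowest in the library numbered 1 in 10 of the 11 culture groups that have one, and Tbr1 and Tle4 in 9 each. The library numbered 10 had the highest Fezf2 and the lowest Cux2 of its group in 6 of 6 groups, and that numbered 11 the highest Bcl11b in 6 of 6. Pou3f2 was highest in the library numbered 3 in 8 of 8 groups, and Cux1 and Rorb in 6 of 8 each. Nothing states whether libraries of the same number share a culture, the groups are not independent counts, and no test was made.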
